A study of Mus musculus with 6 samples.

Results

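Genomic imprinting marks a gene by the parent it came from, so that only the maternal or only the paternal copy is transcribed. The mark is DNA methylation set in the germ line at imprinting control regions, and most imprinted genes sit in clusters in which a non-coding RNA is read from one parental chromosome and protein-coding genes from the other. Imprinted genes are known for dosage-sensitive roles in fetal growth, in the placenta and in the brain, and several of them are used as markers of stem cell state. The genes described here are 33 imprinted mouse genes taken by symbol from a list, and they fall into 16 clusters or single loci. The count table held 32 of them among 32493 genes, since *Snurf* had no counts of its own, and 28 had enough counts to be tested among 16710 genes.

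RNA was sequenced from neural stem cells (NSCs) dissected from the brains of E14.5 mouse embryos and grown in culture. The cko embryos were homozygous for a floxed miR-151 allele and carried Emx1-IRES-Cre, which expresses Cre recombinase in the dorsal telencephalon. The ctrl embryos were littermates with the same floxed alleles but no Cre, and the sample labels call them wt. The line is kept on a C57BL/6J background, so that counts sum both parental copies of a gene and cannot tell them apart. Each genotype has 3 columns of counts in the deposited table, but the column of ctrl replicate 2 equalled the mean of ctrl libraries 1 and 3, rounded up, in 32493 of 32493 genes. It was left out of every fit and every n, which leaves 2 ctrl and 3 cko libraries. Emx1-IRES-Cre acts only in cells of the *Emx1* lineage, and *Emx1* itself had 10 and 9 counts in ctrl libraries 1 and 3 and 1, 4 and 6 counts in cko libraries 1, 2 and 3.

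The libraries held 17883796 to 23335736 counts, so that 3 counts, the least taken as detectable, stood for 0.128 to 0.168 CPM (counts brought to a common library total and scaled by TMM). This floor covers counting error only. The deleted miRNA is not measured by these libraries, and its host gene *Ptk2* was at 133 and 149 CPM in ctrl and at 142, 138 and 140 CPM in cko, which overlapped. The NSC marker *Sox2* had 10428 to 14596 counts in every library, and *Mki67*, a gene of dividing cells, was higher in cko by a log2 fold change (cko over ctrl) of 1.30. *Xist*, the RNA of the inactive X chromosome, stood at 2885 and 2554 CPM in ctrl libraries 1 and 3 and at 786 to 893 CPM in the cko libraries, and *Ddx3y*, *Eif2s3y*, *Kdm5d* and *Uty* on the Y chromosome were higher in cko by log2 fold changes of 0.92 to 1.40. At an adjusted p under 0.05 (edgeR, Benjamini-Hochberg), 6 of 14 tested NSC markers were called. The 4 higher ones were *Nes*, *Hes5*, *Prom1* and *Notch1*, and the 2 lower ones *Slc1a3* and *Gli3*. *Sox2* was not called (log2 fold change 0.12). Of 12 oligodendrocyte markers 7 were called lower and 2 higher, with 8 negative log2 fold changes. Of 10 astrocyte markers 5 were called lower and none higher, with 9 negative log2 fold changes, beside 16.4% of all tested genes called. The part of these differences in the values of imprinted genes was not tested.

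The sequences printed first belong to genes whose level differed between genotypes, and a stretch of *Dlk1*, which was not called, is printed beside its counts. *H19* and *Rian*, both non-coding RNAs of the maternal chromosome, hold the precursors of mature miRNAs, and their RefSeq sequences (GRCm38.p6) are given 5′ to 3′ with the seed, bases 2 to 8, in capitals. The libraries counted the host transcripts and not the mature miRNAs. *H19* holds a single precursor, whose mature arms span chr7:142577078-142577133 on the minus strand.
miR-675-5p: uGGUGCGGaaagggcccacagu
miR-675-3p: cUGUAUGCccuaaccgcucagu
*Rian* holds 3 precursors, whose mature arms lie within chr12:109611521-109618326 on the plus strand.
miR-341-5p: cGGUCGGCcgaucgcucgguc
miR-341-3p: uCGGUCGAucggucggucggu
miR-1188-5p: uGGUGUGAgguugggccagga
miR-1188-3p: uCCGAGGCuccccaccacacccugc
miR-370-5p: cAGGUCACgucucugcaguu
miR-370-3p: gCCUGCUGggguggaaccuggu
None of the 8 shares its seed with another of them. The neighbouring maternal RNAs *Meg3* and *Mirg* hold 3 and 26 mature sequences.

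ZFP57, a zinc finger protein that keeps methylation at imprinting control regions through early development, is known to bind the letters TGCCGC when their CpG is methylated. RefSeq promoter windows (of one length, mostly upstream of each gene start, GRCm38.p6) were found for 27 of the listed genes, and 13 of their 42 windows, 31% of them, held these letters on either strand, against 11.6% of 32851 windows of all genes. These windows are not all separate sequences. *Snrpn* and *Snurf* share the same window, and *Mest* has windows that overlap almost fully, all of them with a match, so that some letters were counted more than once. Windows without a match, as in *Gnas*, overlap too. The windows of the listed genes were also richer in CpG, with a median of 13.5 per window against 7, and the letters contain a CpG. *Nap1l5* holds the letters in the forward direction at 2 places, chr6:58907133-58907162 and chr6:58907082-58907111, and *Zim1* holds them in reverse at chr7:6696435-6696464. All 3 stretches are on the minus strand and are printed 5′ to 3′ with the match in capitals. For *Nap1l5*, upstream and downstream are relative to the RefSeq gene start, and both stretches lie upstream of the gene span given below.
Nap1l5 upstream: cagccattcactTGCCGCgagccgcgaagc
Nap1l5 downstream: gccgtcagcgttTGCCGCatcttcagacgc
Zim1: gaaagtcatcccGCGGCAttccactccggg
The promoter window of *Rian* held no match and 0 CpG. *H19* had no entry. Methylation and binding were not measured in this series, and a match is a description of the letters.

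In 4 of the 28 tested imprinted genes the level differed between genotypes by edgeR's quasi-likelihood test, taken at 0.05 after Benjamini-Hochberg adjustment over all genes tested. *Rian* and *Nap1l5* rose in cko, and *Zim1* and *H19* fell. The share of 14.3% stands beside 16.4% of all 16710 tested genes (2746 genes, 7.86% higher and 8.57% lower), so that the share of imprinted genes called was near that of all genes. The median log2 fold change of the 28 genes was 0.04 against -0.0026 for all tested genes, and the median size of the change was 0.20 against 0.26. Of the 28 log2 fold changes, 15 were positive and 13 negative.

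**Figure D1:**
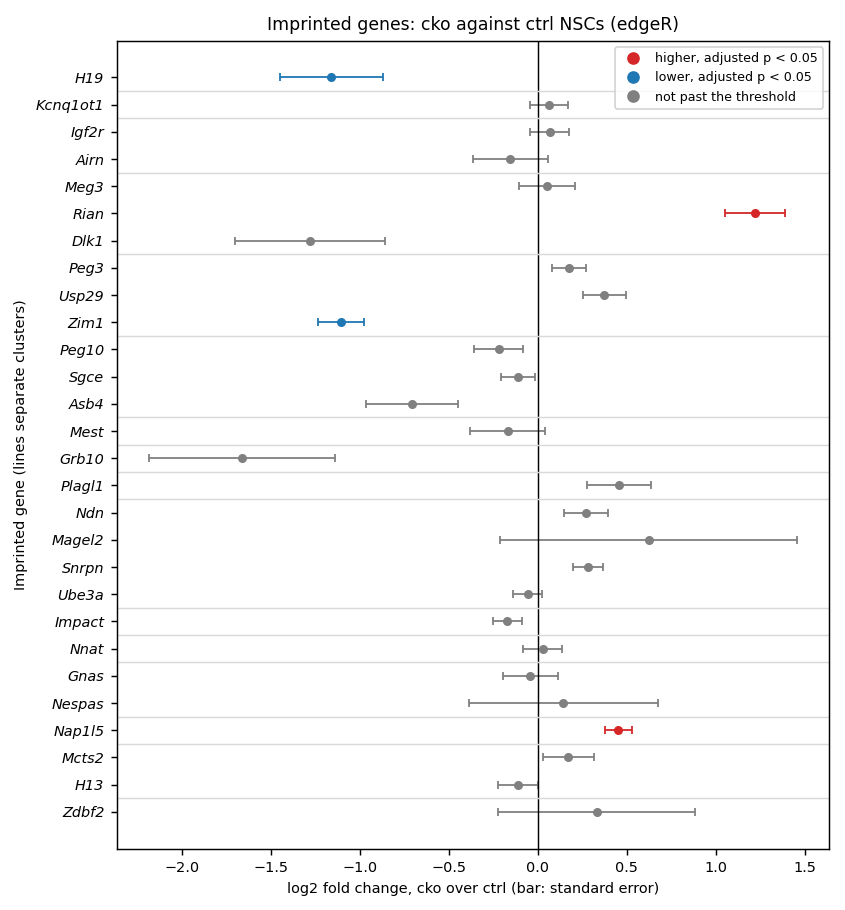
Log2 fold change of each of the 28 tested imprinted genes, cko over ctrl, on the x axis, with the standard error of the edgeR fit as a bar and grey lines between clusters. *Rian* (1.22) and *Nap1l5* (0.45) are the genes called higher, *H19* (-1.16) and *Zim1* (-1.11) those called lower, and *Grb10* (-1.66) has the lowest value with a wide error and is not called.

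Past the threshold of the study, a log2 fold change over 0.9 in size with an unadjusted p under 0.01, were *Rian* on the higher side and *H19* and *Zim1* on the lower side. Of all tested genes, 6.55% passed it (2.39% higher and 4.17% lower). In 13 of the 28 genes (46.4%) the CPM of the 3 cko libraries did not overlap those of the 2 ctrl libraries, 6 higher and 7 lower, against 49.7% of all tested genes (25.4% higher and 24.2% lower). By the parental copy that is usually expressed, 1 of 6 maternal genes was called higher and 2 lower. Of 18 paternal genes 1 was called higher and none lower. At this adjusted p under 0.05, 16.4% of all tested genes were called (7.86% higher and 8.57% lower). The maternal calls were *Rian*, *H19* and *Zim1*, too few genes for a contrast between parental copies. None of the 4 genes whose expressed copy depends on the tissue (*Grb10*, *Ube3a*, *Gnas* and *H13*) was called.

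The *Dlk1*-*Dio3* cluster on chromosome 12 encodes the NOTCH-related membrane protein *Dlk1* and the retrotransposon-derived *Rtl1* on the paternal chromosome and the RNAs *Meg3*, *Rian* and *Mirg* on the maternal one. *Rian* (ENSMUSG00000097451, chr12:109603940-109661716), the host of many small nucleolar RNAs, stood at 6.76 and 5.38 CPM in ctrl libraries 1 and 3 and at 12.7, 14.9 and 14.9 CPM in cko libraries 1, 2 and 3. Every cko library was above both ctrl libraries. The means were 6.07 ± 0.98 in ctrl (SD, n = 2) and 14.2 ± 1.25 in cko (SD, n = 3), and the fold change of the edgeR fit was 2.33, a log2 fold change of 1.22 (SE 0.17, Benjamini-Hochberg adjusted p = 0.00508). *Meg3*, which is transcribed upstream of *Rian* in the same direction, had 11.3 and 12.7 CPM in ctrl and 10.6, 13.4 and 13.3 CPM in cko. The genotypes overlapped, and its log2 fold change was 0.06 (SE 0.16).

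*Rian* and *Meg3* were also compared within each library, where depth and scaling cancel. There were 0.598 and 0.424 *Rian* counts for each *Meg3* count in ctrl libraries 1 and 3, and 1.20, 1.12 and 1.12 in cko libraries 1, 2 and 3. The ratio was thus 2.27 times higher in cko with no overlap, at an exact two-sided permutation p of 0.2. This p is the smaller tail over the 10 splits of 2 and 3 libraries, doubled, and in this form it can be no smaller. *Dlk1* was low, with 29 and 15 counts in ctrl libraries and 6, 11 and 10 in cko libraries. Its genotypes did not overlap, and its log2 fold change of -1.28 (SE 0.42) had an adjusted p of 0.0813 in edgeR's test with Benjamini-Hochberg adjustment. *Mirg* had 1 to 8 counts and *Rtl1* at most 1 count per library, both below the filter.

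A match to the seed of miR-151-5p, the miRNA deleted in cko, was looked for in 3′UTRs (GENCODE M21, GRCm38), taking for every coding gene the longest one annotated. The letters CTCCTCG pair with its bases 2 to 8, which were read from the study's mimic and occur in the annotated precursor. *Dlk1* was the 1 gene of 25 coding imprinted genes (4%) with a match, against 3.55% of 21124 coding genes, and it lies at chr12:109462482-109462508 on the plus strand with the match in capitals.
Dlk1 3′UTR: cgaataattctgCTCCTCGgtttccca
The counts of *Dlk1* are those given above, and no test of a seed effect was made.

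**Figure D2:**
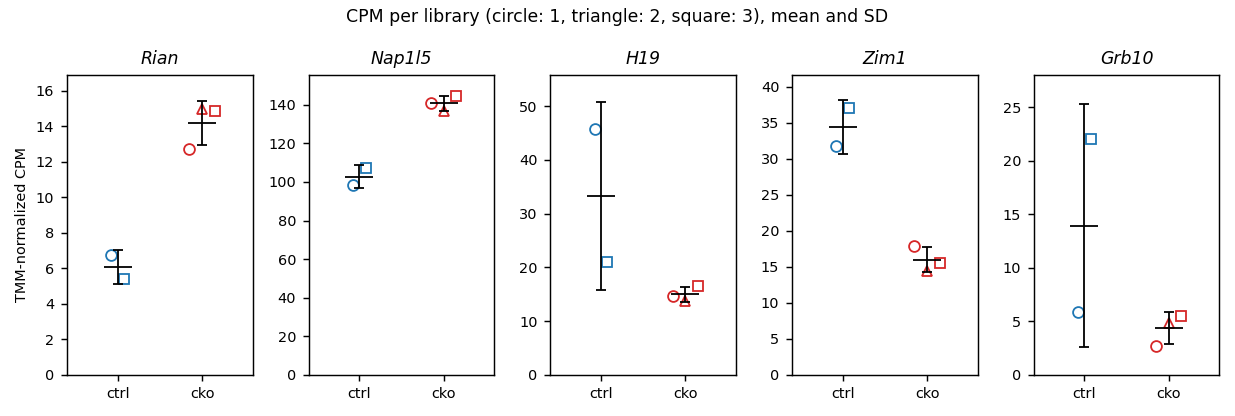
TMM-normalized CPM (y axis, from 0) of *Rian*, *Nap1l5*, *H19*, *Zim1* and *Grb10* in each library by genotype, with horizontal lines for the mean and bars for the SD (2 ctrl and 3 cko libraries). The cko libraries lie above both ctrl libraries for *Rian* and *Nap1l5* and below them for the other genes, and the ctrl libraries lie 2.18-fold apart for *H19* and 3.74-fold apart for *Grb10*.

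The *Peg3* cluster on chromosome 7 holds paternal genes *Peg3*, a zinc finger gene with roles in growth and maternal behaviour, and *Usp29*, a deubiquitinase gene that shares its promoter region, and the maternal zinc finger gene *Zim1*. *Zim1* (ENSMUSG00000002266, chr7:6671269-6696450) had 31.7 and 37.0 CPM in ctrl libraries 1 and 3 and 17.9, 14.47 and 15.6 CPM in cko libraries 1, 2 and 3. Every cko library was below both ctrl libraries, with means of 34.4 ± 3.76 (SD, n = 2) and 15.99 ± 1.77 (SD, n = 3). The log2 fold change was -1.11 (SE 0.13, Benjamini-Hochberg adjusted p = 0.00288 in edgeR), which is 2.15-fold lower in the fit. *Peg3* stood at 389 and 326 CPM in ctrl and at 388, 402 and 422 CPM in cko. These overlapped, with a log2 fold change of 0.18 (SE 0.10).

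Per *Peg3* count, the *Zim1* count was 0.0816 and 0.114 in ctrl libraries and 0.0462, 0.0360 and 0.0369 in cko libraries. Relative to its paternal neighbour, the maternal gene was thus lower in every cko library. The exact permutation p was 0.2, the smallest that the doubled tail allows. *Usp29* had 11.95 and 12.7 CPM in ctrl and 15.4, 16.6 and 15.98 CPM in cko. All cko values were higher, and the log2 fold change of 0.37 (SE 0.12) missed the threshold (edgeR, Benjamini-Hochberg adjusted p = 0.0777). Its ratio to *Peg3* overlapped between genotypes.

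The *H19*/*Igf2* cluster, also on chromosome 7, pairs the maternal RNA *H19* with the paternal growth factor *Igf2*, which use the same enhancers. *H19* (ENSMUSG00000000031, chr7:142575529-142578143) had 45.7 and 20.9 CPM in ctrl libraries 1 and 3 and 14.7, 13.7 and 16.5 CPM in cko libraries 1, 2 and 3. Ctrl library 1 stood far above ctrl library 3, which was itself above the 3 cko libraries. The log2 fold change was -1.16 (SE 0.29, Benjamini-Hochberg adjusted p = 0.0346 in edgeR), from means of 33.3 ± 17.5 (SD, n = 2) and 14.98 ± 1.39 (SD, n = 3).

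The size of the *H19* change rested on the ctrl libraries. Without ctrl library 1 the log2 fold change was -0.49 (edgeR, Benjamini-Hochberg adjusted p = 0.0424), and without ctrl library 3 it was -1.61 (adjusted p = 0.000169). Without cko library 1, 2 or 3 it was -1.15, -1.11 or -1.24, and the call was lost, with adjusted p of 0.104, 0.130 and 0.103 by the same edgeR test. *Igf2* was at 0 to 6 counts in every library and could not be compared, and *Igf2os* on the opposite strand had at most 1 count. Of the *Igf2* exon bases, 62.8% also lie in the coding gene *Gm49394* on the same strand, which had no row of counts. Whether reads of these shared bases were counted for *Igf2* is not known, so its level cannot be read from these counts.

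*Nap1l5* (ENSMUSG00000055430, chr6:58905233-58907076), a paternal gene of the nucleosome assembly protein family without introns, lies inside the gene *Herc3* on the opposite strand. It had 98.6 and 107 CPM in ctrl libraries 1 and 3 and 141, 137 and 144 CPM in cko libraries 1, 2 and 3. The genotypes were well apart compared with the spread within each. The rise was 1.37-fold in the fit, with a log2 fold change of 0.45 (SE 0.08, Benjamini-Hochberg adjusted p = 0.00912 in edgeR). Without cko library 2 or 3 the adjusted p was 0.0561 or 0.0679 at log2 fold changes of 0.46 and 0.42.

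*Herc3* had a log2 fold change of 0.06, and the *Nap1l5* count per *Herc3* count was 2.97 and 3.98 in ctrl libraries against 4.49, 4.44 and 4.57 in cko libraries. The 2 genes share no exon bases, but *Nap1l5* lies in the span of *Herc3*, and whether the counting used strand is not given in the sources used here. A similar arrangement holds for *Nnat*, a paternal gene for a small membrane protein of developing neurons, in an intron of *Blcap*. *Nnat* had 431 and 341 CPM in ctrl and 414, 386 and 381 CPM in cko, with overlapping genotypes. *Blcap*, an apoptosis-related gene, fell from 80.1 and 83.5 CPM to 56.8, 51.9 and 49.9 CPM (log2 fold change -0.63, edgeR, Benjamini-Hochberg adjusted p = 0.00436).

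**Figure D3:**
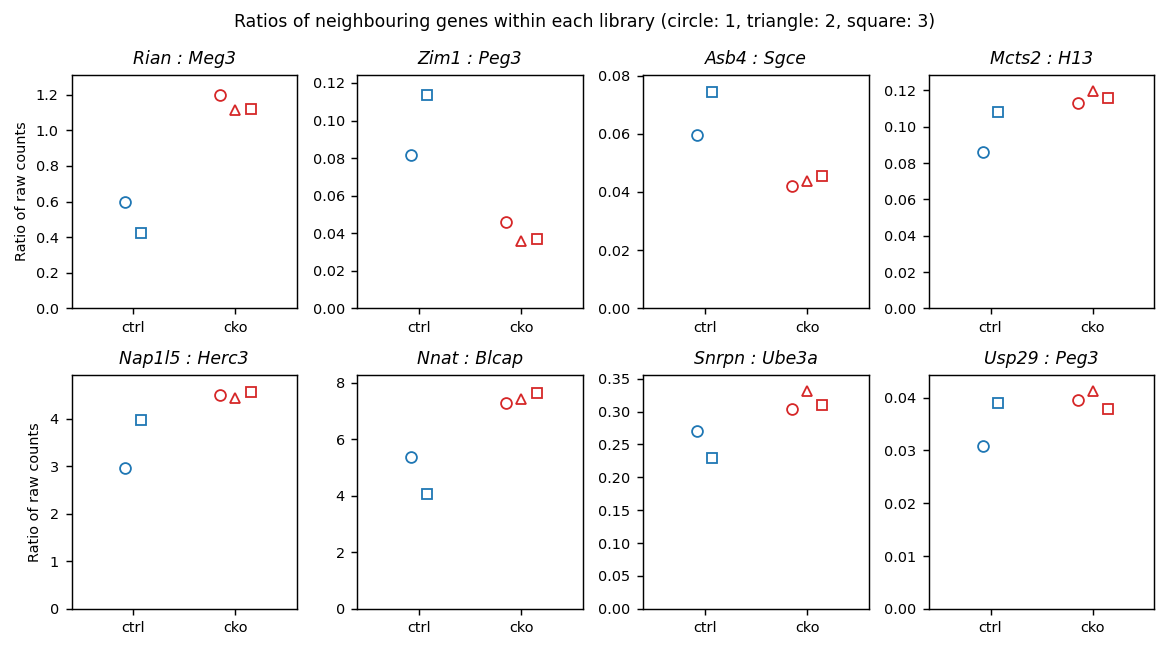
Ratio of raw counts of neighbouring genes (y axis, from 0) in each library, by genotype, for 8 of the 12 pairs compared. The cko libraries lie apart from the ctrl libraries in 7 panels, with *Rian* to *Meg3* at 1.12 to 1.20 against 0.424 to 0.598 and *Zim1* to *Peg3* at 0.0360 to 0.0462 against 0.0816 to 0.114, and *Usp29* to *Peg3* overlaps.

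Over the 12 pairs of neighbours compared in this way, 5 ratios were higher in cko without overlap (*Rian* to *Meg3*, *Mcts2* to *H13*, *Nap1l5* to *Herc3*, *Nnat* to *Blcap* and *Snrpn* to *Ube3a*) and 2 lower (*Zim1* to *Peg3* and *Asb4* to *Sgce*). Each of the 7 had the smallest exact permutation p that the doubled tail allows, 0.2, so that none can pass 0.05. For comparison, 49.7% of single genes had no overlap between genotypes, and no such share was computed for ratios of other pairs. The ratios of *Usp29* to *Peg3*, *Peg10* to *Sgce*, *Airn* to *Igf2r*, *Ndn* to *Snrpn* and *Nespas* to *Gnas* overlapped between genotypes.

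The *Peg10*/*Sgce* cluster on chromosome 6 holds the retrotransposon-derived *Peg10*, the sarcoglycan gene *Sgce* that shares its promoter, both paternal, and the maternal *Asb4*, a subunit of ubiquitin ligases. *Asb4* was low, with 2.40 and 2.66 CPM in ctrl and 1.40, 1.58 and 1.65 CPM in cko. The genotypes did not overlap, and the log2 fold change of -0.71 (SE 0.26) had an adjusted p of 0.106 in edgeR with Benjamini-Hochberg adjustment. *Peg10* and *Sgce* had log2 fold changes of -0.22 (SE 0.14) and -0.11 (SE 0.09), with overlapping libraries.

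In the *Snrpn*/*Ube3a* cluster, whose loss on the paternal or maternal side underlies Prader-Willi and Angelman syndromes in humans, the splicing protein gene *Snrpn* had 35.2 and 33.7 CPM in ctrl and 41.5, 44.0 and 40.3 CPM in cko. Every cko library was higher, with a log2 fold change of 0.28 (SE 0.09) and a Benjamini-Hochberg adjusted p of 0.0644 in edgeR. *Snurf*, which shares its transcript with *Snrpn*, lies with all of its exons inside *Snrpn* and the overlapping gene *Gm38393*, and reads of these genes cannot be told apart. *Gm38393* went the other way, at 28.9 and 24.4 CPM in ctrl and 24.0, 21.9 and 24.2 CPM in cko (log2 fold change -0.19, SE 0.12). The *Snrpn* level and its ratio to *Ube3a* may thus depend on how shared reads were assigned, which was not tested. *Ndn*, a growth suppressor of neurons, had a log2 fold change of 0.27 (SE 0.13) with overlapping libraries. *Ube3a*, a ubiquitin ligase read from both chromosomes outside mature neurons, was at 130 to 147 CPM in every library (log2 fold change -0.06, SE 0.08). *Magel2* had 1 and 9 counts in ctrl and 8, 6 and 10 in cko, and its log2 fold change of 0.62 was smaller than its SE of 0.83.

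**Figure D4:**
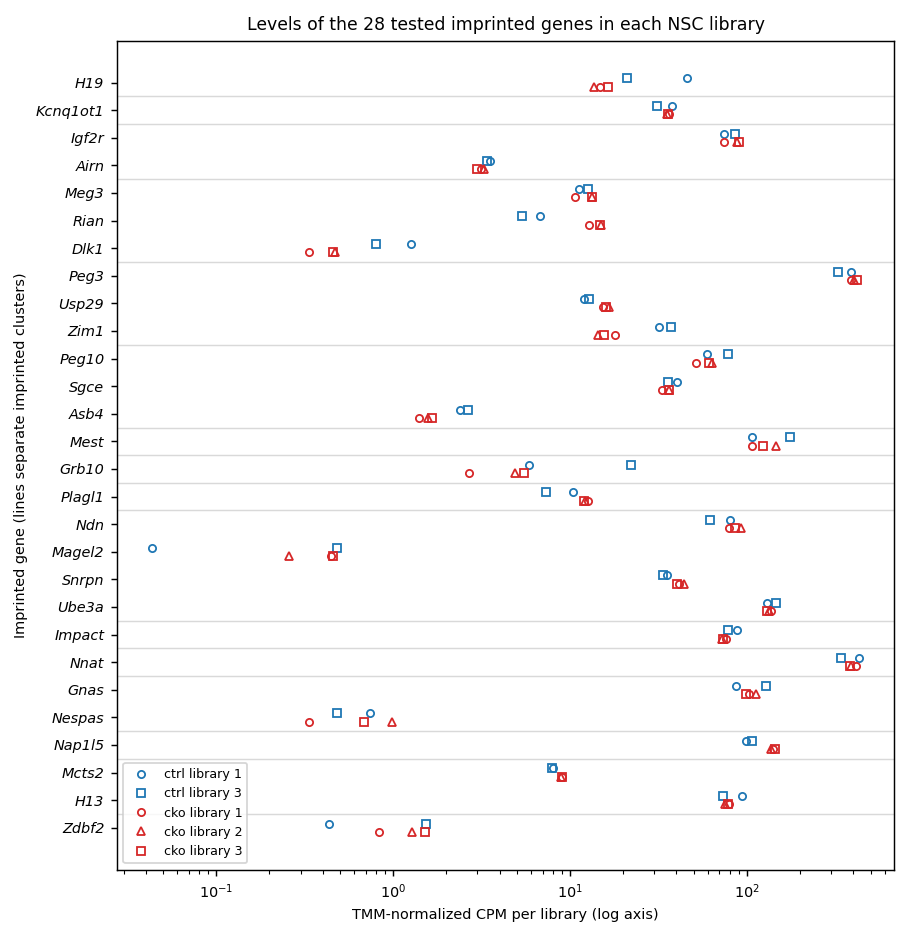
TMM-normalized CPM on a log axis (x) of the 28 tested imprinted genes in each of the 5 libraries, with ctrl in blue and cko in red and grey lines between clusters. Levels run from under 1 CPM (*Dlk1* in cko, *Magel2*, *Nespas*) to over 300 CPM (*Peg3*, *Nnat*), and most genes have overlapping genotypes or a gap that is small beside the range of levels.

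*Grb10*, an adaptor that restrains growth factor signalling and is read from the maternal copy in most tissues and the paternal copy in neurons, had the lowest fitted log2 fold change of the 28, -1.66 (SE 0.52), and was not called (edgeR, Benjamini-Hochberg adjusted p = 0.0710). It had 5.89 and 22.0 CPM in ctrl libraries 1 and 3 and 2.68, 4.88 and 5.51 CPM in cko libraries 1, 2 and 3. Ctrl library 3 stood apart from all others, and ctrl library 1 was only just above the highest cko library. Without ctrl library 3 the log2 fold change was -0.42, and without ctrl library 1 it was -2.33. Ctrl library 3 was thus the high one for *Grb10*, whereas ctrl library 1 was the high one for *H19*. Of the 28 genes, 4 (*H19*, *Grb10*, *Magel2* and *Zdbf2*) lay over 2-fold apart in the ctrl pair, and 2 (*Grb10* and *Nespas*) did so among the cko libraries.

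*Plagl1*, a paternal zinc finger gene that regulates other imprinted genes, had 10.5 and 7.30 CPM in ctrl and 12.6, 12.2 and 11.9 CPM in cko. Its cko libraries were close together and above both ctrl libraries, and its log2 fold change of 0.46 (SE 0.18) had an adjusted p of 0.129 in edgeR with Benjamini-Hochberg adjustment. *Impact*, a paternal regulator of translation, had 88.4 and 77.9 CPM in ctrl and 76.1, 72.1 and 73.6 CPM in cko, which did not overlap, a log2 fold change of -0.17 (SE 0.08). *Mest*, a paternal gene named for its expression in mesoderm, was at 106 and 176 CPM in ctrl and at 107, 145 and 124 CPM in cko, and 23.1% of its exon bases overlap the last exons of *Copg2* on the other strand. *Mcts2*, an intronless paternal gene in an intron of *H13*, had 8.07 and 7.89 CPM in ctrl and 8.999, 8.95 and 9.04 CPM in cko, which did not overlap, with a log2 fold change of 0.17 (SE 0.14). Its parent copy *Mcts1* on the X chromosome had 24.9 and 25.4 CPM in ctrl and 24.4, 27.2 and 28.4 CPM in cko, which overlapped. The sequences of *Mcts1* and *Mcts2* were not compared, and whether reads were split between them was not tested.

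The antisense RNAs that silence neighbours on the paternal chromosome showed no call. *Kcnq1ot1*, the silencer of the *Kcnq1* domain, was at 31.0 to 37.7 CPM in all libraries (log2 fold change 0.06, SE 0.11), and its neighbour *Phlda2*, a placental growth restrainer, had 0 to 4 counts. *Airn*, the silencer of *Igf2r*, was at 3.53 and 3.41 CPM in ctrl and at 3.13, 3.25 and 2.98 CPM in cko. These did not overlap, with a log2 fold change of -0.15 (SE 0.21). *Igf2r*, the receptor that clears IGF2, was at 73.8 to 89.7 CPM with a log2 fold change of 0.07 (SE 0.11). *Nespas* had 6 to 23 counts, while *Gnas*, the gene of the stimulatory G protein alpha subunit, was at 87.2 to 129 CPM (log2 fold change -0.04, SE 0.16). *Airn* lies across *Igf2r*, and *Nespas* shares 31.4% of its exon bases with *Gnas*, each on the opposite strand. *Zdbf2* and *H13*, the gene of a signal peptide peptidase, had log2 fold changes of 0.33 (SE 0.55) and -0.11 (SE 0.11).

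Per exon length, on the RPKM scale, *Nnat* was the highest of the listed genes, at 211 RPKM in ctrl and 215 RPKM in cko (means). *Nap1l5* followed at 55.8 and 76.3 RPKM. *Mest* (35.8 and 31.8 RPKM), *Peg3* (26.8 and 30.3 RPKM) and *Ndn* (19.3 and 23.3 RPKM) came next, and the libraries of these 3 genes overlapped between genotypes. *Rian* was at 0.333 and 0.778 RPKM, *Zim1* at 4.25 and 1.98 RPKM and *H19* at 13.5 and 6.09 RPKM. The called genes thus ran from 0.333 RPKM (*Rian* in ctrl) to 76.3 RPKM (*Nap1l5* in cko). *Nnat* stood above them, and genes such as *Magel2* (0.0565 and 0.0837 RPKM) stood below.

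Among 42 other imprinted genes, 38 had counts and 28 were tested, and 7 of the 28 (25%) were called, beside 16.4% of all tested genes. *Commd1*, a copper metabolism gene, rose from 8.42 and 9.01 CPM to 13.1, 12.8 and 15.3 CPM (log2 fold change 0.66, SE 0.15). *Gab1*, an adaptor of receptor tyrosine kinases, rose from 237 and 204 CPM to 304, 311 and 328 CPM (log2 fold change 0.51, SE 0.09). *Cdkn1c*, the maternal inhibitor of cyclin-dependent kinases in the *Kcnq1* domain, fell from 50.8 and 51.6 CPM to 29.1, 29.4 and 25.6 CPM (log2 fold change -0.87, SE 0.09). *Cd81* (log2 fold change -0.53), *Pon2* (-1.24) and *Blcap* (-0.63) also fell. Of these 7, *Blcap*, *Cdkn1c* and *Pon2* were still called without cko library 2, and the same 3 and *Cd81* without cko library 3.

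*Rasgrf1*, a paternal exchange factor for RAS, fell furthest, from 53 and 117 counts in ctrl libraries to 14, 17 and 11 counts in cko libraries (log2 fold change -2.65, SE 0.47, Benjamini-Hochberg adjusted p = 0.0113 in edgeR). *Cdkn1c* fell while *Kcnq1ot1*, which silences it on the paternal chromosome, overlapped between genotypes. *Cdkn1c* and *Mki67* moved in opposite directions, as values, and the part of cell division in these differences was not tested.

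**Figure D5:**
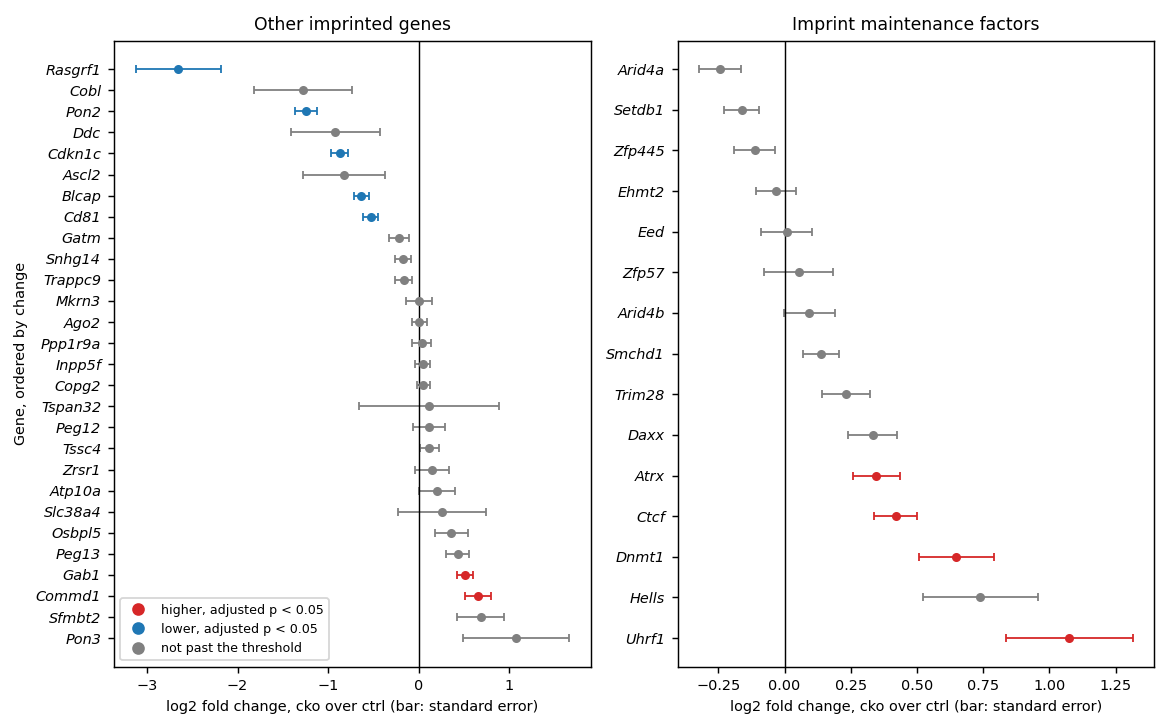
Log2 fold change, cko over ctrl, with the standard error as a bar, of the 28 tested other imprinted genes (left) and of the 15 tested factors that maintain imprints (right), each ordered by the change. *Rasgrf1* (-2.65) is the lowest on the left, and the 4 called factors on the right, *Uhrf1* (1.08), *Dnmt1* (0.65), *Ctcf* (0.42) and *Atrx* (0.35), are all higher in cko.

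Of 16 genes whose products maintain imprints, 15 were tested, 4 were called higher in cko and none lower (26.7%, against 16.4% of all tested genes). *Uhrf1*, which brings DNMT1 to newly copied DNA, had 50.4 and 76.3 CPM in ctrl and 97.9, 160 and 142 CPM in cko, a log2 fold change of 1.08 (SE 0.24, Benjamini-Hochberg adjusted p = 0.0248 in edgeR). *Dnmt1*, the maintenance DNA methyltransferase, had 177 and 215 CPM in ctrl and 256, 337 and 327 CPM in cko (log2 fold change 0.65, SE 0.14). The insulator protein gene *Ctcf* and the chromatin remodeller gene *Atrx* had log2 fold changes of 0.42 (SE 0.08) and 0.35 (SE 0.09). *Zfp57*, *Zfp445* and their partner *Trim28* had log2 fold changes of 0.05, -0.11 and 0.23 and were not called. *Uhrf1* and *Dnmt1* are transcribed most in dividing cells, and *Mki67* rose in the same libraries, a link that was not tested. Without cko library 2, and likewise without cko library 3, none of the 15 was called.

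Markers of the other cell types that the cultures could hold were set beside these values. Neuron markers, 12 in all, summed to 1357 to 1428 CPM in ctrl and 1500 to 1555 CPM in cko, which did not overlap. Of 10 tested neuron markers 3 were called, beside 16.4% of all tested genes. *Syt1* and *Elavl4* were called higher (log2 fold changes of 1.57 and 1.30) and *Dcx* lower (-1.51). The summed level of 12 oligodendrocyte markers was 3919 to 4579 CPM in ctrl and 3795 to 3931 CPM in cko, and that of 10 astrocyte markers was 2598 to 3580 CPM in ctrl and 1374 to 2046 CPM in cko. Within the oligodendrocyte list *Mbp*, a gene of myelin, had a log2 fold change of -4.16, and *Olig1* and *Olig2* rose. Markers of meningeal and mesenchymal cells, in which *H19* and *Igf2* are strongly expressed in the embryo, summed to 62.3 to 74.7 CPM in ctrl and 72.6 to 80.6 CPM in cko, with 2 of 6 tested genes called lower (*Foxc1* and *Tbx18*) and 1 higher (*Ptgds*, which glial cells also express). *Ptgds* made up most of this sum, at 47.0 and 51.3 CPM in ctrl and 67.2 to 72.2 CPM in cko. Without it, a step chosen after its values were seen, the other 11 markers summed to 15.4 and 23.4 CPM in ctrl libraries 1 and 3 and to 5.37, 7.32 and 8.40 CPM in cko libraries 1, 2 and 3. *Foxc1* alone gave 10.6 and 15.2 CPM of this sum in ctrl and 3.24, 3.60 and 3.86 CPM in cko. *Thbs2* went the other way and was not called (log2 fold change 0.73), and most of the others had few counts. This smaller sum was thus lower in every cko library, as *H19* was, and its highest value was in ctrl library 3, whereas that of *H19* was in ctrl library 1. Those of endothelial and mural cells summed to 6.25 to 7.62 CPM over all libraries, with *Cdh5* at 0 and *Cldn5* without counts, and those of microglia and blood to at most 1.23 CPM, with *Cx3cr1*, *Hba-a1* and *Hbb-bs* at 0. In bulk RNA, fewer cells of a type and less RNA per cell cannot be told apart. The part of neuronal, glial and mesenchymal cells in the values of imprinted genes was not tested.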

How the data were processed

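Gene counts came from RNA-seq of cultured NSCs. After quality filtering with NGSQC and HISAT2 alignment against mm10, the authors deposited 6 columns of unnormalized counts per gene. The build named in the sample labels is GRCm39, and the counting tool, annotation and use of strand are not given in the sources used here. Reads of overlapping genes and near copies are therefore uncertain.

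Groups came from the sample titles. The labels do not tie the libraries of a genotype to separate embryos or cultures, and the paper says only in general terms that several embryos were used per experiment, so p-values measure the spread between these libraries, which may be technical. For names and positions, 31836 of 32493 gene IDs were found in GENCODE M21 (GRCm38). The unmatched IDs held 0.18% to 0.30% of the counts of a library.

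Counts of the 5 libraries, without the averaged column, were fitted in R 4.3.3 with edgeR 4.0.16 over all 16710 genes kept. The fit used filterByExpr by genotype, TMM factors of 0.990 to 1.01 and a quasi-likelihood test, with Benjamini-Hochberg adjustment over these genes. As alternatives the fit was made with DESeq2 1.42.0, with size factors by median of ratios, without a filter, with a minimum of 10 counts per library, on all 6 columns, with the replicate number as a block, and without each library in turn. The steps were tested on simulated data. RPKM used annotated exon length. The genes listed, the other lists and the tests were chosen with earlier results of these data known, and the named genes are all listed genes plus the called genes of the other lists. Parental copies expressed and cluster names are textbook assignments. Promoter and miRNA sequences are from RefSeq (GRCm38.p6). Figures were drawn with matplotlib 3.10.9.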

Additional observations from a re-analysis of the deposited data

How the results depend on the processing

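*Rian* and *Zim1* were called in the same direction under all 12 alternatives. Of 328 values of single listed genes under the alternatives, 287 kept their direction and side of the threshold, 20 passed it only under the alternative, 5 no longer passed it and 16 turned their direction. With all 6 columns, the averaged column counts as a library and narrows the ctrl spread. In these fits 5 listed genes were higher and 5 lower with edgeR, and 5 higher and 3 lower with DESeq2. Of all genes, 34.7% were called there with edgeR and 16.6% with DESeq2. Other imprinted genes then numbered 4 higher with edgeR, and maintenance factors 8 and 7 higher and 2 and 1 lower with edgeR and DESeq2.

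Leaving out 1 library gave 1 to 5 listed genes higher and 1 to 6 lower, 1 to 2 lower past the study threshold, 0 to 4 other imprinted genes higher and 3 to 8 lower, and 0 to 6 maintenance factors higher. All genes called then ranged from 4.50% without cko library 2 to 21.7% without ctrl library 1. Without ctrl library 1, *Grb10*, *Peg3*, *Plagl1*, *Ndn*, *Mest*, *Peg10* and *Gnas* were called too, and without ctrl library 3 *H13*. Directions turned, none of them past the threshold in both signs, within ranges of -0.066 to 0.20 (*Kcnq1ot1*), -0.039 to 0.17 (*Igf2r*), -0.035 to 0.15 (*Meg3*), -0.50 to 0.24 (*Mest*), -0.15 to 0.035 (*Ube3a*), -0.13 to 0.20 (*Nnat*), -0.31 to 0.27 (*Gnas*), -0.25 to 0.50 (*Nespas*), -0.28 to 0.072 (*H13*) and -0.34 to 1.48 (*Zdbf2*). The cause was not tested.

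With the replicate number as a block, 2 listed genes were called higher and 3 lower, beside 11.9% of all tested genes called. *Grb10* was added (log2 fold change -1.61, edgeR, Benjamini-Hochberg adjusted p = 0.00377), and the log2 fold changes of *Meg3* and *Nespas* turned to -0.011 and -0.27. Among the maintenance factors *Hells* was called and *Ctcf* and *Atrx* were not. The paper describes the genotypes as littermates but neither it nor the labels say which libraries share a litter, and deviations of same-numbered libraries correlated across genes at r = 0.143 and 0.0507 in the 2 pairs. At this depth *Igf2*, *Phlda2*, *Mirg* and *Rtl1* had too few counts to be tested. Tested genes with under about 10 counts in some libraries, such as *Magel2*, *Dlk1* and *Nespas*, rest on few reads.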
